A study of Mus musculus with 12 samples.

Results

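The loci of 3 microRNAs (miRNAs) that are abundant in liver were followed here, in RNA libraries of mouse liver: Mir192, Mir194-1, Mir194-2 and Mir148a. They were taken as the rows of the deposited table with these names, and make up 4 of the 259 miRNA loci used and 4 of all 3717 rows. The livers came from male C57BL/6 mice labelled wild type (WT), fed chow or a diet labelled HFCF, which the labels do not spell out, in a study of nonalcoholic steatohepatitis, the inflamed form of fatty liver. Each diet was given for 1 month, with sampling at 3 months of age, or for 3 months, with sampling at 6 months of age, so time on diet and age cannot be told apart. Each of the 4 groups held 3 libraries, called biological replicates in the design text, or 12 libraries in all. The labels' protocol names a small RNA library kit and the design text a stranded RNA kit with ribosomal RNA removal, and the sources used here do not settle which one made the libraries.

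A miRNA is cut from a hairpin in a longer transcript, and 1 strand of the hairpin is loaded into an Argonaute protein. Bases 2 to 8 of that strand, the seed, pair with target mRNAs, which are then repressed. miR-192 and miR-194 are made from shared primary transcripts that hepatocyte nuclear factors drive in liver and gut epithelium, and both are also abundant in kidney. miR-148a is abundant in hepatocytes and is known in mouse and human cells for repressing the cholesterol exporter ABCA1 and DNA methyltransferases.

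The mature strands that are usually the more abundant ones are shown because the families are defined by their seeds, which stand in capitals (RefSeq, GRCm38.p6, written 5′ to 3′).
miR-192-5p: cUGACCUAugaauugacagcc
miR-215-5p: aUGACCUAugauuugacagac
miR-194-5p: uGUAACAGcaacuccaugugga
miR-148a-3p: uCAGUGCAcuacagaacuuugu
miR-148b-3p: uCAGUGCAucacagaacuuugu
miR-152-3p: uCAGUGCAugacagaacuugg
miR-215 shares the seed of miR-192 and differs from it by C1A, A12U and C20A, with positions counted from 1 at the 5′ end and the base of miR-192 first. Relative to miR-148a, miR-148b differs by C9U and U10C, and miR-152 by C9U, U10G and U20G and by being 21 rather than 22 bases long. miR-194-5p is the same 22 bases from both of its hairpins. All 3 miRNAs with related seeds (Mir215, Mir148b and Mir152) were in the table and are described beside the 4 loci.

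The hairpins of the 4 loci are shown because the counts were made per hairpin and do not separate its 2 arms, which stand in capitals. All 4 had the same coordinates in the table and in the RefSeq records (mm10, which is GRCm38).
Mir192: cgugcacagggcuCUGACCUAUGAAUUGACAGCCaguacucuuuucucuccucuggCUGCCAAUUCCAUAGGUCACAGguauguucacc
Mir194-2: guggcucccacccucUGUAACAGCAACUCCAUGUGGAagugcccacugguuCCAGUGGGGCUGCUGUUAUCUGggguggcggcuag
Mir194-1: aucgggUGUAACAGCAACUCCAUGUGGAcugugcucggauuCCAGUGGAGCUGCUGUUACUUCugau
Mir148a: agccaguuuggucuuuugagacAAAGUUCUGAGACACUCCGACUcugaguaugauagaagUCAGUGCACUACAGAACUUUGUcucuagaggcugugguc
Mir194-2 (chr19:6264643-6264728) and Mir192 (chr19:6264844-6264932) lie on the plus strand 115 bases apart, between the genes Atg2a and Gm14963. Mir194-1 (chr1:185313319-185313385) lies on the plus strand, in introns of the antisense gene 2010103J01Rik and, on the opposite strand, of the isoleucyl-tRNA synthetase gene Iars2. It is followed after 195 bases by Mir215. Each miR-194 hairpin thus has a member of the miR-192 seed family beside it. Mir148a (chr6:51269812-51269910) lies between genes on the minus strand. The 3′ arms of the 2 miR-194 hairpins differ by A8G, C19U, U20C and C22G, with Mir194-1 first, so reads of the 5′ arm cannot be told apart while those of the 3′ arm can.

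Libraries held 2539388 to 5255906 counts in the table, and 1434214 to 3122907 of them fell on miRNA loci. Hepatocyte transcripts were seen in the rows of longer RNAs, with 8 of 10 listed ones tested and Alb (albumin) at 15780 to 29060 CPM (counts scaled to a fixed library total) of longer transcripts. Markers of several other cells set chow replicate 2 at 1 month apart. Its 3 measured mesenchymal miRNAs summed to 38430 CPM of miRNA counts, where the other 11 libraries had 13190 to 21900. Its single measured pancreas miRNA was at 44.7 CPM, against at most 5.37 elsewhere, and its 6 epithelial miRNAs at 4453 CPM, against at most 3685. Erythroid miRNAs, 3 of 5 measured, were highest in another library, chow replicate 1 at 1 month, at 5379 CPM. Replicates 2 and 3 of that group had 2258 and 1705 CPM. In HFCF libraries they summed to 3395 to 4376 CPM at 1 month and 1853 to 2069 CPM at 3 months.

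Shares and ranks are taken within the 259 miRNA loci used, so a miRNA without a row among them does not enter. Of 6 listed hepatocyte miRNAs beside the 4 loci, 4 had such a row. The 4 loci together took 25.1% to 32.5% of the counts on these 259 loci in a library. Their order of abundance was the same in all 12 libraries. Mir148a took 14.2% to 20.95% of miRNA counts and ranked second among the 259 loci in 11 libraries, behind Mir21, and first in HFCF replicate 1 at 3 months. Mir192 took 7.89% to 10.3% and had rank 3 in every library. Both miR-194 loci together took 0.743% to 1.41%. At these depths the exact binomial 95% interval of a share was at most 0.058 percentage points to either side for Mir148a and 0.049 for Mir192. These intervals cover counting error only, and the ranges over libraries were far wider.

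Mir194-1 was not abundant. It had 361 to 725 counts per library and ranked 70 to 91, while Mir194-2 ranked 13 to 20. Mir194-1 made up 2.14% to 3.07% of the counts of both copies, and since the usually more abundant arm is identical in both, how reads were split between the copies depends on the counting, which is not given in the sources used here. Per length, on the authors' FPKM scale, the median over the 12 libraries was 915070 for Mir148a, 638410 for Mir192, 57458 for Mir194-2 and 1982 for Mir194-1. The seed relatives were scarce beside them. Mir152 had a median of 10422 FPKM, Mir148b 9705 and Mir215 156. Mir148a held 97.9% to 98.8% of the counts of its seed family and Mir192 at least 99.95% of its own.

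**Figure D1:**
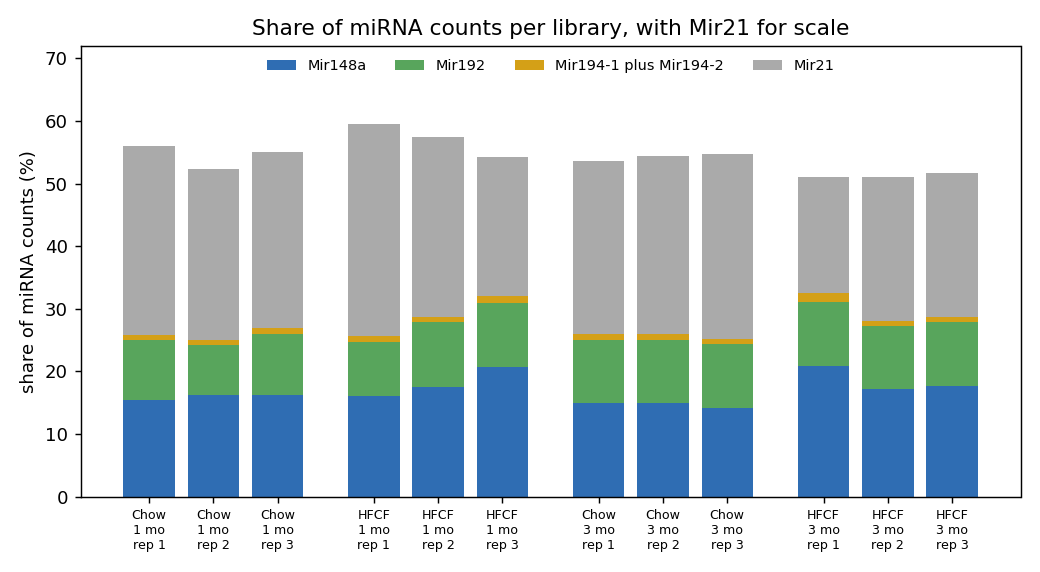
Share of miRNA counts (%, vertical axis) in each of the 12 libraries for Mir148a, Mir192, both miR-194 loci summed and, for scale, Mir21; each bar is 1 library. Mir148a is at 17.2% to 20.95% in the 3 HFCF libraries at 3 months and at 14.2% to 14.96% in the chow libraries of that time, and Mir192 is near 10% in all 6.

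As a share of miRNA counts, Mir148a was at 15.5%, 16.3% and 16.3% in chow and 16.0%, 17.5% and 20.8% in HFCF mice at 1 month. These groups overlapped, and their means of 16.0% ± 0.453 and 18.1% ± 2.42 (SD, n = 3 each) did not pass (exact permutation p = 0.3, two-sided). At 3 months it was at 14.91%, 14.96% and 14.19% in chow and 20.95%, 17.24% and 17.73% in HFCF mice, with every HFCF library above every chow library. The means were 14.7% ± 0.431 and 18.6% ± 2.02 (exact permutation p = 0.1, two-sided, the smallest that 3 against 3 allow), so no share could pass at 0.05. The share of Mir21, the most abundant locus, was 27.6% to 29.5% in chow and 18.6% to 23.1% in HFCF libraries at 3 months. With Mir21 left out of the total, the Mir148a share was 20.6%, 20.9% and 20.1% in chow and 25.7%, 22.4% and 23.1% in HFCF libraries of that time, and the groups were still apart.

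The share of Mir192 at 3 months was 10.1% ± 0.0554 in chow and 10.1% ± 0.112 in HFCF mice (n = 3 each, exact permutation p = 0.9, two-sided). With Mir21 left out of the total it was 13.9%, 14.1% and 14.4% in chow and 12.5%, 12.96% and 13.2% in HFCF libraries, so every HFCF library lay below every chow library (difference -1.26 percentage points, exact permutation p = 0.1, the smallest possible). At 1 month the share of Mir192 was 9.53%, 7.89% and 9.71% in chow and 8.75%, 10.3% and 10.2% in HFCF mice (exact permutation p = 0.5). The lowest value was in chow replicate 2, the library set apart by mesenchymal, pancreas and epithelial miRNAs. The HFCF mean was 0.714 percentage points higher with that library and 0.136 points higher without it (exact permutation p = 1). The miR-194 share was 0.887% ± 0.0777 in chow and 0.945% ± 0.163 in HFCF mice at 1 month (n = 3 each, exact permutation p = 0.8), and 0.971% ± 0.0899 and 1.01% ± 0.355 at 3 months (exact permutation p = 1). Adjusted over the 6 share tests, the smallest of these p-values was 0.6.

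Levels between groups were compared after TMM scaling, which sets libraries to a common level over most miRNA loci, and are given as CPM. In bulk liver, fewer cells of a type and less RNA per cell cannot be told apart. In the sentences that follow a locus changed if its Benjamini-Hochberg adjusted p in edgeR's quasi-likelihood test was under 0.05 over the 227 loci tested. All 4 loci passed the filter on low counts.

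**Figure D2:**
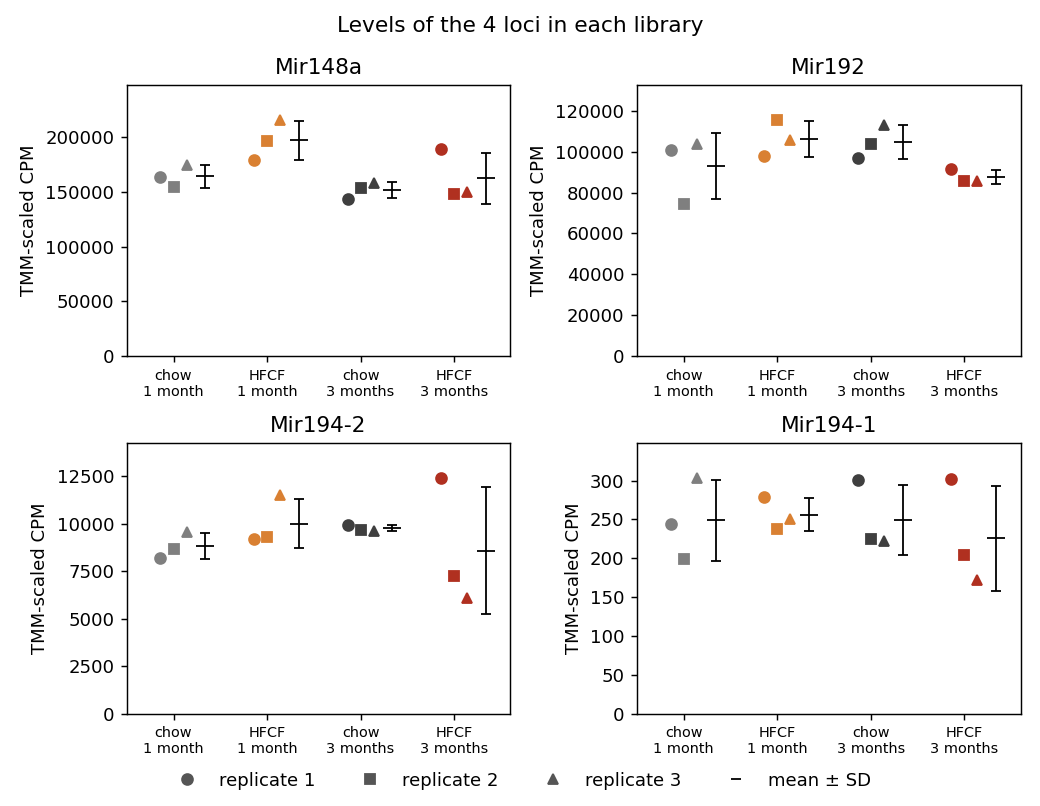
TMM-scaled CPM (vertical axis, from 0) of the 4 loci in each library by group; symbols are replicates and the bars beside them mean ± SD, n = 3. Mir192 in HFCF mice at 3 months lies between 85637 and 91768 CPM, below all chow libraries of that time, and Mir194-2 in the same group spreads from 6104 to 12414 CPM.

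None of the 4 loci changed between the diets at 1 month, where 3.08% of all tested loci did (7 of 227, all lower). None of the 4 passed in any comparison with DESeq2 or limma-voom either. At an unadjusted p under 0.05 there was 1 of the 4, Mir148a, and 18.1% of all loci. Mir148a was at 163943, 153937 and 174285 CPM in chow and at 179276, 196050 and 215373 CPM in HFCF libraries, so every HFCF library lay above every chow library. Its log2 fold change was 0.26 ± 0.11 (SE, n = 3 per group, 95% interval 0.02 to 0.51, edgeR adjusted p = 0.225), and the median over all loci was 0.02. Mir192 was at 100802, 74645 and 103876 CPM in chow and 97782, 115463 and 105770 CPM in HFCF libraries, which overlap. Its log2 fold change was 0.19 (95% interval -0.08 to 0.46, edgeR adjusted p = 0.474), and over the libraries left out in turn it ran from 0.11 without chow replicate 2, the lowest of the 6 libraries, to 0.35 without chow replicate 3 (adjusted p = 0.0962). The measured endothelial miRNA, Mir126, was also higher in every HFCF library at 1 month, at 33770 to 36520 CPM against 29360 to 33180 CPM in chow. Leukocyte miRNAs summed to 1165 to 1431 CPM in HFCF and 982 to 1546 CPM in chow libraries and mesenchymal miRNAs to 16520 to 20450 CPM against 20180 to 38430 CPM. The part of these in the values of Mir148a and Mir192 was not tested.

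Mir194-2 had 8199, 8694 and 9577 CPM in chow and 9192, 9316 and 11498 CPM in HFCF libraries at 1 month (log2 fold change 0.18, 95% interval -0.26 to 0.62, edgeR adjusted p = 0.707). Mir194-1 was at 199 to 303 CPM in chow and 238 to 279 CPM in HFCF libraries (0.04, 95% interval -0.43 to 0.51, adjusted p = 0.915). The groups overlapped for both copies. Both intervals include differences in either direction.

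At 3 months none of the 4 loci changed, while 22.9% of all tested loci did (52 of 227), 8.81% higher and 14.1% lower. At an unadjusted p under 0.05 there were 0 of the 4, and 35.2% of all loci. Mir192 was at 96746, 103939 and 113344 CPM in chow and at 91768, 85637 and 85701 CPM in HFCF libraries. All 3 HFCF libraries thus lay below all 3 chow libraries, but the log2 fold change of -0.26 ± 0.12 (SE, n = 3 per group, 95% interval -0.53 to 0.02) did not pass (edgeR adjusted p = 0.167). Without chow replicate 2 at 1 month, which is not among the libraries compared but shares the fit with them, it was -0.33 (edgeR adjusted p = 0.0129). Of 23 settings tried, this was the 1 in which Mir192 passed at 3 months. With library totals in place of TMM it was -0.00, and it was 0.07 when scaled to the sum of every row.

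Mir148a was at 143469, 153602 and 158282 CPM in chow and at 188843, 148050 and 149752 CPM in HFCF libraries at 3 months. Replicate 1 of the HFCF group was above all chow libraries and the other 2 were within their range. The log2 fold change was 0.10 ± 0.11 (SE, n = 3 per group, 95% interval -0.15 to 0.34, edgeR adjusted p = 0.568), and -0.00 without HFCF replicate 1. Here the scaling set the call. With library totals the log2 fold change of Mir148a was 0.34 (adjusted p = 0.0235), and when scaled to the sum of every row 0.41 (adjusted p = 0.00794), while the median of all tested loci shifted to 0.27 and 0.34 from 0.02 under TMM. Relative to that median, the value of Mir148a was under 0.1 in all 3 scalings. The split of all called loci at 3 months moved with it, from 38.5% higher under TMM to 76.6% and 80.7%.

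**Figure D3:**
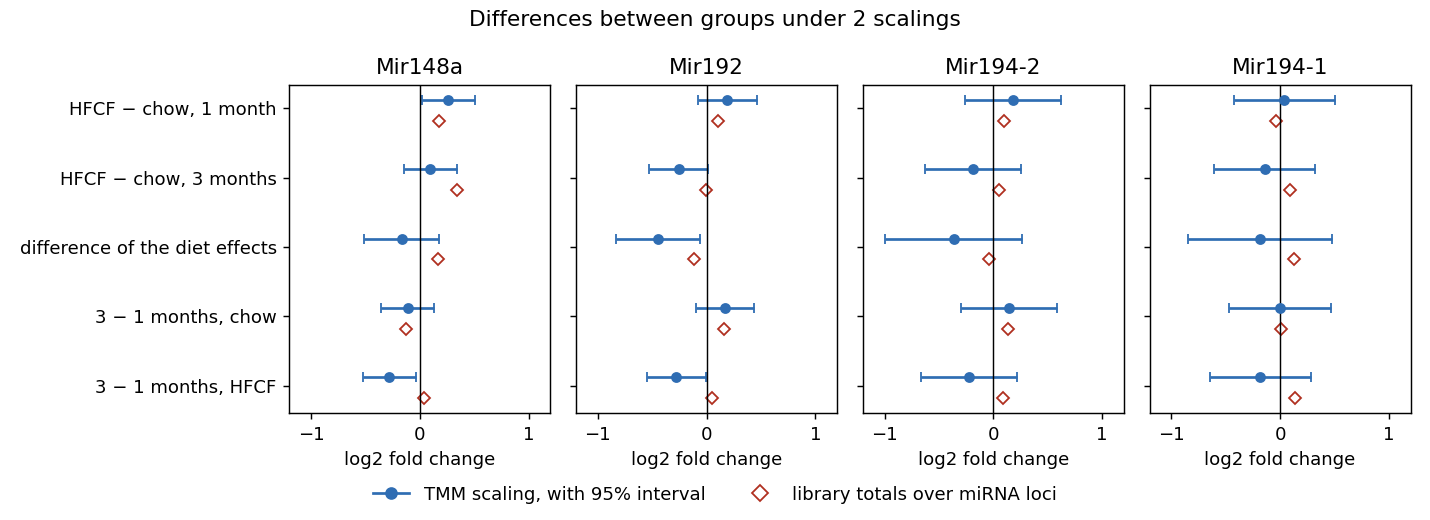
Log2 fold changes of the 4 loci (horizontal axis) in the 5 comparisons; circles are TMM-scaled values with 95% intervals and diamonds values with library totals over miRNA loci. The diamonds at 3 months lie to the right of the circles for all 4 loci, for Mir148a at 0.34 against 0.10.

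Mir194-2 was at 9936, 9683 and 9640 CPM in chow at 3 months and at 12414, 7232 and 6104 CPM in HFCF libraries. The chow libraries were close to each other, and the HFCF libraries lay on both sides of them, replicate 1 above and the other 2 below. The log2 fold change was -0.18 ± 0.20 (SE, n = 3 per group, 95% interval -0.63 to 0.26, edgeR adjusted p = 0.544). HFCF replicate 1 decided this value, since without it the log2 fold change was -0.53 (edgeR adjusted p = 0.0132). Of 23 settings tried, that was the 1 in which Mir194-2 passed at 3 months. Mir194-1 had the same order, with 301, 224 and 222 CPM in chow and 301, 204 and 171 CPM in HFCF libraries (-0.14, 95% interval -0.61 to 0.32, adjusted p = 0.659). The miR-194 values were 0.05 for Mir194-2 and 0.09 for Mir194-1 with library totals.

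The listed hepatocyte miRNAs other than these loci, of which 4 of 6 were measured (Mir215, Mir802, Mir101a and Mir101b), summed to 21190 to 29980 CPM in HFCF and 30870 to 41950 CPM in chow libraries at 3 months. Most of this sum was Mir101b, at 16210 to 23460 CPM in HFCF and 24460 to 32720 CPM in chow libraries. The sum therefore does not stand for all 4 measured miRNAs. Mir101a and Mir101b fell by 0.56 and 0.54 on the log2 scale (edgeR adjusted p = 0.0202 for both). Under library totals they fell by 0.31 and 0.29 without passing (0.0649 and 0.0699). The other 2 had values above 0. Mir802, which is raised in livers of obese mice, rose by 1.099 (adjusted p = 0.0125), and Mir215 had 0.25 (0.626). Leukocyte miRNAs, 5 of 5 measured, summed to 1103 to 1896 CPM in HFCF and 918 to 1181 CPM in chow libraries. Mesenchymal miRNAs, 3 of 4 measured, summed to 13190 to 21900 CPM against 17530 to 21260 CPM. The part of any of these in the values of the 4 loci was not tested.

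The diet effect at 3 months was set against that at 1 month in the same fit. None of the 4 loci passed, and 0.881% of all tested loci did (2 of 227, 1 in each direction, 0.441% each). At an unadjusted p under 0.05 there was 1 of the 4, Mir192, and 18.9% of all loci. Mir192 had the difference farthest from 0, -0.45 ± 0.18 (SE, n = 3 in each of 4 groups, 95% interval -0.83 to -0.06, edgeR adjusted p = 0.182), from 0.19 at 1 month to -0.26 at 3 months. It was -0.11 with library totals. The difference was -0.37 for Mir194-2 (adjusted p = 0.521), -0.18 for Mir194-1 (0.799) and -0.17 for Mir148a (0.587). Without HFCF replicate 1 at 3 months that of Mir194-2 was -0.73 (edgeR adjusted p = 0.0288). That fit was picked from 12, 1 per library left out, and its p is not adjusted for the choice.

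Between 1 and 3 months in chow none of the 4 loci changed, and 0.441% of all loci did (1 of 227, which was higher). At an unadjusted p under 0.05 there were 0 of the 4, and 10.1% of all loci. The log2 fold changes were 0.17 for Mir192, 0.14 for Mir194-2, 0.00 for Mir194-1 and -0.11 for Mir148a (edgeR adjusted p = 0.633 to 0.999), and leaving out chow libraries of 1 month moved that of Mir192 to 0.10 (replicate 2) or 0.31 (replicate 3). In HFCF mice none passed either, while 15.9% of all loci did (36 of 227), 8.37% higher and 7.49% lower. At an unadjusted p under 0.05 there were 2 of the 4, Mir148a and Mir192, and 33.5% of all loci. The log2 fold change was -0.28 for Mir148a (95% interval -0.53 to -0.03, edgeR adjusted p = 0.107), -0.28 for Mir192 (95% interval -0.55 to -0.01, 0.138), -0.22 for Mir194-2 (0.504) and -0.18 for Mir194-1 (0.594). With library totals all 4 values turned positive, from 0.04 to 0.14, where the median of all loci was 0.35. Mir148a passed without HFCF replicate 1 at 3 months (-0.40, adjusted p = 0.00957), as did Mir194-2 (-0.58, 0.0103). Mir192 passed without chow replicate 2 at 1 month (-0.34, 0.0161). These calls were picked from 12 fits, 1 per library left out, and are not adjusted for the choice.

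The seed relatives did not change in any of the 5 comparisons either. Mir148b, in an intron of the coatomer gene Copz1, was at 1886, 1655 and 1918 CPM in chow and 1471, 1652 and 1435 CPM in HFCF libraries at 1 month. The HFCF libraries were all lower than the chow libraries (log2 fold change -0.26, 95% interval -0.47 to -0.05, edgeR adjusted p = 0.164), opposite in sign to Mir148a at the same time. At 3 months it was -0.06 (adjusted p = 0.674). Mir152, in an intron of the related gene Copz2, had log2 fold changes of -0.06 at 1 month and -0.07 at 3 months (adjusted p = 0.836 and 0.659). Mir215 had 0.07 and 0.25 (0.914 and 0.626), from 25 to 138 counts per library.

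A ratio of 2 loci within a library does not depend on how the library was scaled. The ratio of Mir148a to Mir192 counts was 1.48, 1.48 and 1.40 in chow and 2.06, 1.73 and 1.75 in HFCF libraries at 3 months, with every HFCF library above every chow library. On the log2 scale the means were 0.54 ± 0.05 and 0.88 ± 0.14 (SD, n = 3 each, exact permutation p = 0.1, the smallest possible). At 1 month the ratio was 1.63, 2.06 and 1.68 in chow and 1.83, 1.70 and 2.04 in HFCF libraries, which overlap (log2 means 0.83 ± 0.19 and 0.89 ± 0.13, n = 3 each, exact permutation p = 0.7). Over both times, with diet permuted within each time, the log2 ratio was 0.20 higher in HFCF mice (exact permutation p = 0.055 over 400 arrangements, two-sided, n = 6 per diet; the smallest possible is 0.005). The highest chow value came from chow replicate 2 at 1 month, the library that stood apart, and without it the difference was 0.25 (exact permutation p = 0.01). Without HFCF replicate 2 at 1 month it was 0.23 (exact permutation p = 0.025), and over all libraries left out in turn it was 0.16 to 0.25. These 2 p-values were picked from 12 such fits, 1 per library left out, and are not adjusted. With all 12 libraries the exact permutation p of 0.055 became 0.11 when adjusted over the 2 ratios tested.

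**Figure D4:**
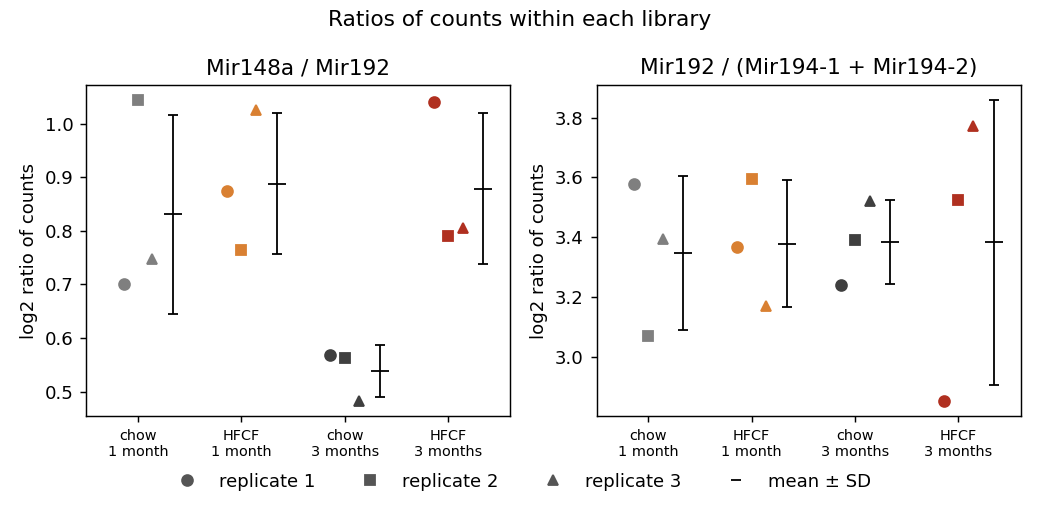
Log2 ratio of counts within each library (vertical axis) for Mir148a to Mir192 and for Mir192 to both miR-194 loci, by group; symbols are replicates and bars mean ± SD, n = 3. For Mir148a to Mir192 at 3 months the HFCF libraries lie at 0.79 to 1.04 and the chow libraries at 0.48 to 0.57.

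Mir192 had 7.22 to 13.7 times the counts of both miR-194 loci. Both ends of this range came from 1 group, HFCF at 3 months, where the ratio was 7.22, 11.5 and 13.7, while the chow libraries of that time had 9.45, 10.5 and 11.5. At 1 month it was 11.9, 8.39 and 10.5 in chow and 10.3, 12.1 and 9.002 in HFCF libraries. The log2 ratio differed between the diets by 0.01 over both times (exact permutation p = 0.94 over 400 arrangements, two-sided, n = 6 per diet). Adjusted over these 2 ratios, the permutation p of the Mir148a to Mir192 ratio was 0.11.

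Within groups, Mir148a and Mir192 varied less between mice than the median locus, and the miR-194 loci more. The SD of log2 levels about the group means was 0.13 for Mir148a and 0.16 for Mir192, which rank 27 and 49 from the smallest among the 185 loci with a mean of at least 10 CPM. It was 0.29 for both miR-194 loci (ranks 120 for Mir194-1 and 115 for Mir194-2), and the median locus had 0.22. The ranks were not matched for level, and include far scarcer loci, down to a mean of 10 CPM. Mir148b and Mir152 were among the least variable loci, at 0.08 and 0.09 (ranks 7 and 11), and Mir215 was at 0.46. The highest library had 1.5 times the level of the lowest for Mir148a, 1.55 times for Mir192, 1.77 times for Mir194-1 and 2.03 times for Mir194-2, where the median locus had 1.95.

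Mir192 and Mir194-2, which lie 115 bases apart, did not follow each other closely. The Pearson correlation of their log2 levels over 12 libraries was 0.42, and 0.19 about the group means. Both miR-194 copies, which lie on different chromosomes but share the 5′ arm, had 0.75, and Mir194-1 and its neighbour Mir215 had -0.63. Mir194-2 and Mir148a had 0.60, and 0.84 about the group means. All such values come from the same 12 libraries, whose loci share scaling and depth, and are a description.

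**Figure D5:**
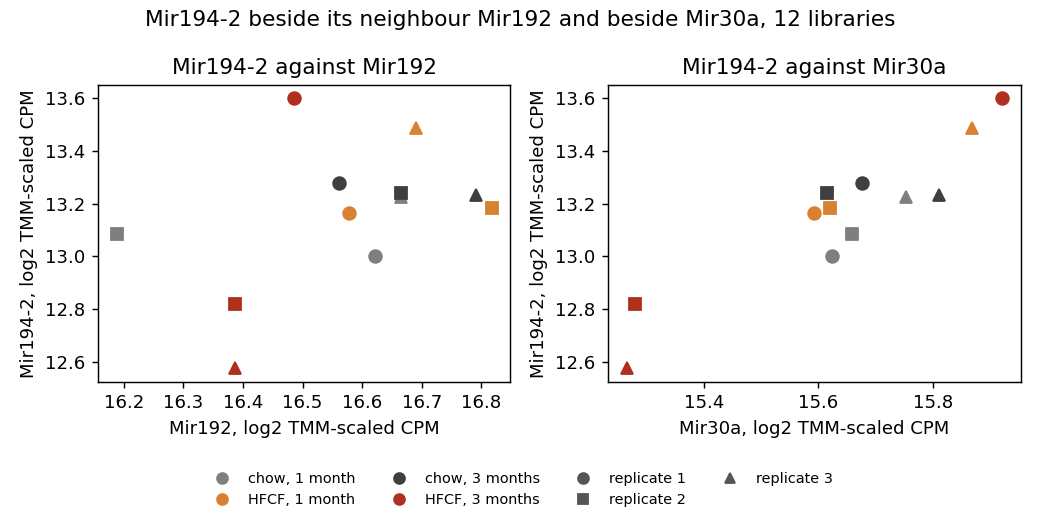
Log2 TMM-scaled CPM of Mir194-2 (vertical axes) against its genomic neighbour Mir192 and against Mir30a (horizontal axes); each point is 1 of 12 libraries, with color for the group and shape for the replicate. The correlation is 0.42 with Mir192 and 0.93 with Mir30a, whose extremes are the HFCF libraries at 3 months.

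The loci most like each of the 4 were listed by their correlation over the 12 libraries, among loci with a mean of at least 10 CPM and with the 4 loci themselves left out. Mir194-2 was most like Mir30a (0.93, and 0.95 about the group means), an abundant miRNA of many tissues, which was at 62010, 39810 and 39400 CPM in the HFCF libraries at 3 months. That is the order of Mir194-2 in the same 3 libraries, and in chow at that time Mir30a was at 50210 to 57470 CPM. The next were CT010508.1 (0.82), a miRNA locus named only by its clone, and Mir30e (0.79). Mir194-1 was most like Mir30e (0.75), Mir7-1 (0.74) and CT010508.1 (0.69), beside the 0.75 with the other copy given above.

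Mir192 was most like Mir22 (0.85, and 0.83 about the group means), AC154660.1 (0.79) and Mirlet7g (0.78). Of these Mirlet7g, of the let-7 family, fell at 3 months in HFCF mice by 0.36 on the log2 scale (edgeR adjusted p = 0.0235), a call lost under library totals (-0.11, 0.328), and Mir22 had -0.34 (0.0658). Mir148a was most like AC116595.1 (0.82), Mir185 (0.79) and Mir574 (0.78), and these values were 0.58, 0.59 and 0.42 about the group means. Of these Mir185 rose at 3 months by 0.32 on the log2 scale (edgeR adjusted p = 0.0322), and by 0.56 under library totals.

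Transcripts reported as targets of the 3 miRNAs in human or rodent cells, with regulators of their genes and miRNA processing enzymes, were looked up among the rows of longer RNAs in the same libraries. These rows held 73528 to 186994 counts per library, and 22 of 48 listed transcripts were in the table, of which 17 were tested. How well these rows measure mRNA depends on which of the named kits was used, which is not settled, and most of the 17 had a mean of under 50 counts. Of all 1723 such rows tested, 1.1% changed at 1 month (0.696% higher and 0.406% lower) and 2.03% at 3 months (0.754% higher and 1.28% lower).

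Scd1, the stearoyl-CoA desaturase that makes monounsaturated fatty acids and is a reported target of miR-192, had 1279, 1223 and 910 CPM of longer transcripts in chow and 2489, 2481 and 5536 in HFCF libraries at 1 month. At 3 months it had 875, 684 and 1016 in chow and 6565, 7546 and 12350 in HFCF libraries. All HFCF libraries lay above all chow libraries at both times (log2 fold change 1.62 and 3.36, n = 3 per group, edgeR adjusted p = 0.00217 and 1.95e-09). Scd1 was the 1 called of 6 tested miR-192 targets at each time, while Mir192 itself did not change. Zeb2, Srebf1, Rictor, Egr1 and Xiap did not pass.

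Lpin1, a phosphatidate phosphatase of triglyceride synthesis in the miR-148a list, had 422, 495 and 487 in chow and 232, 191 and 190 CPM in HFCF libraries at 1 month. It fell by 1.19 on the log2 scale (n = 3 per group, edgeR adjusted p = 0.0105), a call lost with DESeq2, without chow replicate 2 and without HFCF replicate 2. At 3 months its value was -1.29 (adjusted p = 0.107). Of 6 tested miR-148a targets it was the 1 called at 1 month, and 0 were called at 3 months. Abca1, which exports cholesterol to HDL, had 0.22 at 1 month and 0.84 at 3 months (edgeR adjusted p = 0.836 and 0.0902). Cpt1a, an enzyme of fatty acid entry into mitochondria, had 0.17 and 0.29.

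Neither of the 2 tested miR-194 targets passed, which were Cdh2 (N-cadherin) and Nr1h4, the bile acid receptor. Of the regulators, Hnf4a had 0.04 at 1 month and -0.15 at 3 months (edgeR adjusted p = 0.983 and 0.864) and Foxa2 -0.02 and -0.05. Dicer1, at a mean of 7.75 counts, was the 1 processing enzyme tested and did not pass.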

How the data were processed

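Counts per gene locus were deposited by the authors as whole numbers, with FPKM values beside them, per the file headers; the submitters' processing notes name mm10. Aligner, counter and strand setting were not given in the sources used here, which name 2 library kits. FPKM was used only to set levels side by side per length and to repeat the ratios. Of 3717 rows, 3617 matched GENCODE M21. miRNA loci (259) were fitted with edgeR 4.0.16 in R 4.3.3: library size as their sum, TMM, filterByExpr (227 kept), robust quasi-likelihood test over 12 libraries with 4 group means. Standard errors are the absolute log2 fold change over the square root of F, with 95% intervals from them. Longer transcripts that overlap no small RNA row were fitted apart. Shares and ratios had exact permutation tests (scipy 1.17.1). DESeq2 1.42.0 and limma 3.58.1 were alternatives. The fits were tested on simulated data. For miRNA loci at 3 months they recovered 46.7% of 1.5-fold, 66.7% of 2-fold and 93.3% of 4-fold changes (15 loci each). They called 0.549% of unchanged loci. A locus that did not pass may therefore still differ by 1.5-fold or 2-fold, and changes under 1.5-fold were not simulated. The changed loci were drawn at random from all tested loci, so these rates are not those of the 4 loci. Same-numbered replicates did not pair (5 of 18 pairs correlated over 0.1). Text names the 4 loci, their seed relatives, the 3 likest loci of each and listed transcripts; members and lists were chosen with earlier results of these data known. Some miRNAs are not analysed here. The values of 1 gene of the miR-148a target list are not reported here.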

Additional observations from a re-analysis of the deposited data

How the results depend on the processing

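Of 456 alternative values of the 4 loci's log2 fold changes, 407 kept their sign and their side of the threshold, 8 passed where the reported value did not and 41 changed sign, none of the last with an adjusted p under 0.05; no reported value of the 4 loci had passed, so no call could be lost; 23 of the 41 were of Mir194-1. With library totals, values that changed sign were -0.042 for Mir194-1 at 1 month, 0.088 for Mir194-1 and 0.051 for Mir194-2 at 3 months, 0.13 for Mir194-1 and 0.17 for Mir148a in the difference of diet effects, and 0.050 (Mir192), 0.14 (Mir194-1), 0.090 (Mir194-2) and 0.042 (Mir148a) over time in HFCF; Mir148a at 3 months passed at 0.34, and 26 and 83 loci were called in the last 2 comparisons. With the sum of every row as library size they were 0.067 (Mir192), 0.155 (Mir194-1) and 0.12 (Mir194-2) at 3 months, 0.13 (Mir194-1) and 0.16 (Mir148a) in the difference, and 0.092 (Mir192), 0.18 (Mir194-1), 0.13 (Mir194-2) and 0.084 (Mir148a) over time in HFCF; Mir148a passed at 0.41, and 88, 26 and 93 loci were called at 3 months, in the difference and over time in HFCF. With all genes in 1 fit they were 0.083 (Mir194-1) and 0.029 (Mir194-2) at 3 months and 0.26 (Mir148a) over time in chow. Over time in HFCF they were 0.0065 (Mir192), 0.093 (Mir194-1), 0.058 (Mir194-2) and 0.0091 (Mir148a). That fit called 11, 8 and 68 rows at 1 month, over time in chow and over time in HFCF. These are counts over all its rows, longer RNAs included, and cannot be set beside the counts of miRNA loci. At 1 month, without a change of sign, the fit gave 0.58 (Mir148a), 0.51 (Mir192), 0.49 (Mir194-2) and 0.34 (Mir194-1). None had an adjusted p under 0.05 in edgeR, and the report has 0.26, 0.19, 0.18 and 0.04. The same fit gave 0.33 for Mir148a and -0.0031 for Mir192 at 3 months. Over time in chow it gave 0.52 (Mir192), 0.35 (Mir194-1) and 0.52 (Mir194-2).

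Mir194-1 over time in chow, 0.00 in the report, was -0.0024 with DESeq2 size factors, -0.0026 with DESeq2, -0.0098 with limma-voom, -0.013 with only the groups compared and -0.011 with the replicate block. Loci called were 13 at 1 month and 17 in the difference with DESeq2, 0 in the difference and 0 over time in chow with limma-voom, 1 and 0 with a mean of at least 10 CPM, and 4 at 1 month and 0 over time in chow with only the groups compared. DESeq2 called 1 listed transcript at 1 month. The Mir192 share at 3 months differed by -1.26 percentage points without Mir21 and 0.27 as a share of the whole table.

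With the replicate block, Mir192 at 3 months was -0.25 (adjusted p = 0.215) and Mir148a at 1 month 0.26 (0.285); the block changed no call of the 4 loci and called 0 loci over time in chow. The numbers pair no samples by the labels, and same-numbered libraries correlated at -0.22 to 0.43.

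With 1 library left out, the values ran from 0.11 to 0.35 (Mir192), -0.037 to 0.28 (Mir194-1), 0.13 to 0.30 (Mir194-2) and 0.25 to 0.37 (Mir148a) at 1 month, from -0.33 to -0.21 (Mir192), -0.39 to 0.066 (Mir194-1), -0.53 to 0.013 (Mir194-2) and -0.00455 to 0.16 (Mir148a) at 3 months, from -0.45 to 0.00422 (Mir194-1) and -0.73 to -0.16 (Mir194-2) in the difference, from -0.19 to 0.22 for Mir194-1 over time in chow, and from -0.36 to -0.26 (Mir192), -0.58 to -0.022 (Mir194-2) and -0.40 to -0.21 (Mir148a) over time in HFCF. Loci called ran from 3 to 24 at 1 month, 20 to 70 at 3 months, 0 to 28 in the difference, 0 to 8 over time in chow and 5 to 57 over time in HFCF, and listed transcripts from 1 to 2 at 1 month. Differences of shares ran from 0.136 to 1.22 (Mir192), -0.0363 to 0.106 (miR-194) and 0.766 to 3.13 (Mir148a) points at 1 month, and from -0.0531 to 0.0517, -0.167 to 0.167 and 2.80 to 4.66 points at 3 months. The log2 ratio of Mir192 to miR-194 ran from -0.083 to 0.15 and that of Mir148a to Mir192 from 0.16 to 0.25. The cause of these changes was not tested. Precision is limited by 3 mice per group; Mir215 had at most 138 counts per library.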
